A study of Mus musculus with 2 samples.

Results

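Molecular chaperones and their partners were examined in CD8+ regulatory T cells, which were taken from mouse spleens and profiled by total RNA-seq with single-end reads of 50 bases. The genes were chosen by symbol: those that start with Hspa, Hspb, Hsp90, Hsph, Dnaja, Dnajb or Dnajc, the subunits of the CCT chaperonin, Hspd1, Hspe1, Bag1 to Bag6, and Hsf1 and Hsf2. This rule found 92 of the 22609 genes listed. One library, called DKO, came from Tgfbr2-/-Eomes-/- mice, which by their label lack the TGF-beta receptor chain Tgfbr2 and the transcription factor Eomes. The other library, called WT, came from wild-type mice. Mice of both genotypes were naive and aged 3 months. The labels state neither how and in which cells the genes were deleted, nor how many mice were pooled, nor the full set of markers used in the sort.

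Chaperones bind unfolded or newly made proteins and help them to reach their working shape. HSP70 proteins do so in cycles of ATP hydrolysis, which J-proteins (the DNAJ families) start and exchange factors (HSP110, BAG and others) end. HSP90 finishes the folding of kinases and receptors, and the CCT ring folds actin and tubulin. When unfolded proteins accumulate, the transcription factor HSF1 binds heat shock elements, which are inverted repeats of GAA units, and raises the inducible members. A separate response to stress in the endoplasmic reticulum (ER) raises the chaperones of that compartment. Activation and fever temperatures are known to raise several of these genes in T cells.

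The gene counts totalled 19661212 in DKO and 22307065 in WT. Levels are given as CPM, counts scaled to a common library size with TMM factors, and fold values are DKO over WT with 0.5 added to each count. Because each genotype has 1 library, differences have no replicate check and no p-value was computed. The ranges in brackets after fold values are exact 95% intervals; they reflect the number of counts alone and compare these libraries, not the genotypes. A gene was called higher or lower at 2-fold or more if the interval excluded a ratio of 1. Eomes stood at 179.5 CPM in DKO and 469.2 CPM in WT, 2.61-fold lower. Tgfbr2 stood at 244.2 CPM in DKO and 356.7 CPM in WT, 1.46-fold lower. The direction is the one that the label gives, but transcripts of both genes remained in DKO, and why they did was not tested. Of 7 genes that mark CD8+ T cells and this subset, 0 were called, with Cd8a at 978 CPM in DKO and 998 CPM in WT, Il2rb (CD122) at 2213 CPM in DKO and 2675 CPM in WT, and Ikzf2 (Helios) at 47.2 CPM in DKO and 61.5 CPM in WT. Marker lists of other cells summed higher in DKO. Neutrophil markers summed to 2501 CPM in DKO and 509.8 CPM in WT, with 6 of 6 called higher. Dendritic cell markers summed to 4168 CPM in DKO and 1496 CPM in WT (7 of 8 higher), and NK markers to 1670 CPM in DKO and 585.6 CPM in WT (6 of 7). Macrophage and monocyte markers summed to 1733 CPM in DKO and 891 CPM in WT (3 of 7), and CD4+ and FOXP3+ T cell markers to 276.6 CPM in DKO and 108.6 CPM in WT (7 of 8). Plasma cell markers summed to 438.3 CPM in DKO and 217.6 CPM in WT (2 of 5 higher, 1 lower), and B cell markers to 70.07 CPM in DKO and 50.69 CPM in WT (1 of 6 higher). No gene of these lists was at 0 in either library, whereas the erythroid genes Hba-a1, Hba-a2, Hbb-b1 and Hbb-b2 were at 0 in both. Proliferation genes summed to 1106 CPM in DKO and 737.3 CPM in WT, with 8 of 14 higher. The part of other cells and of cycling cells in the chaperone values was not tested. In bulk samples, fewer cells of a type and less RNA per cell cannot be told apart.

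Exact heat shock elements stood in the promoter windows of 4 members. All 4 were among the 7 lowest ratios of the members with enough counts to be compared (at least 1 CPM in either library). The windows run from 250 bases before to 50 bases after each annotated start (RefSeq, GRCm38.p6) and were found for 75 of the 92 members. Hsp90aa1, Hsp90ab1, Hspa8, Hspa9 and Hsf1 were among those without a window, so their promoters were not searched. An element was taken as 3 alternating units with no mismatch, GAANNTTCNNGAA or TTCNNGAANNTTC, each being the other read on the opposite strand. By this definition the inducible members Hspa1a, Hspa1b, Hspb1, Dnajb1, Bag3, Dnaja1, Dnajb4 and Hspa4l held none, though their windows were searched. The mitochondrial chaperonin genes Hspd1 and Hspe1 lie head to head, and the 215 bases between their starts (chr1:55087933-55088147, + strand, read towards Hspe1) hold 2 overlapping elements. The promoter of Dnajb6 (chr5:29735798-29735897, + strand) holds 1. In Hsph1 the element lies just inside the transcript, from base 16 to base 28 after a start (30 bases shown, chr5:149636279-149636308, - strand). Capitals mark the elements, and the sequences are shown because their genes are among the lowest ratios described below.
Hspd1 to Hspe1: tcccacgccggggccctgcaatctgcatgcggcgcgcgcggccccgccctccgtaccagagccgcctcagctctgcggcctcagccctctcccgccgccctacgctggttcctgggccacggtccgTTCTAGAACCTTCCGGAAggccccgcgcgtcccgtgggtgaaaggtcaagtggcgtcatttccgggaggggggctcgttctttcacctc
Dnajb6: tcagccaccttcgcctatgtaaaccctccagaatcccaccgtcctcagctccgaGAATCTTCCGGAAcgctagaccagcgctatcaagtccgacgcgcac
Hsph1: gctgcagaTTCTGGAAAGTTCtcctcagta

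For contrast, 3 ER members hold an ER stress element, searched as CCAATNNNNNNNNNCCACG on both strands. This search was added after the ratios were known. The windows of Hspa5 (chr2:34771970-34772089, + strand), Dnajc3 (chr14:118937812-118937931, + strand) and Hsp90b1 (chr10:86705524-86705664, - strand, 2 elements, the other one on the opposite strand) are shown with the element in capitals.
Hspa5: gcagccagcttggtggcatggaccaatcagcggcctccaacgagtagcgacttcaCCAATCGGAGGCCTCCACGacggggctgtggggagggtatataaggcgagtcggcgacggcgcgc
Dnajc3: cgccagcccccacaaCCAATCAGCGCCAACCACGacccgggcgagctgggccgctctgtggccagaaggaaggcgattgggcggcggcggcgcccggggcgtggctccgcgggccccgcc
Hsp90b1: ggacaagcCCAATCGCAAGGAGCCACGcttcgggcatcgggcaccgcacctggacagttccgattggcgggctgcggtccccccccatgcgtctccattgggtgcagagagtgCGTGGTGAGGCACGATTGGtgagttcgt

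Most inducible members, the cytosolic HSP90 genes and the mitochondrial chaperonin were lower in DKO, and Hsph1, an exchange factor gene, had the lowest ratio of the compared members. ER members were mixed, and 5 of 6 BAG members lay above 1. Of the 92 members, 12 were at 0 in both libraries (Cct8l1, Dnajb3, Dnajb7, Dnajb8, Dnajc5b, Dnajc5g, Hspa12b, Hspb2, Hspb3, Hspb7, Hspb8 and Hspb9). A further 5 were under 1 CPM in both (Cct6b, Dnajc22, Hspa12a, Hspa1l and Hspb1), and 75 were compared. Among those 75, 4 were called lower (Hsph1, Dnajc6, Dnajb6 and Dnaja1), or 5.33%, against 3.6% of all 11735 genes compared. The 1 called higher was Hspa2, or 1.33%, against 11.6% of all genes. Dnajc6 passed the minimum of 1 CPM through WT alone, where it is higher, so the filter bears on its call. With a mean of 1 CPM required instead, 3 of 74 members were lower (4.05%), against 2.68% of the 11251 other genes, and 1 was higher (1.35%), against 10.1%. Ratios below 1 were more common, at 49 of 75 members (65.3%) against 49.8% of all genes. The median log2 ratio of the members was -0.18, and that of all genes 0.00. Intervals lay wholly below 1 for 45 members, wholly above for 16, and included 1 for 14.

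**Figure D1:**
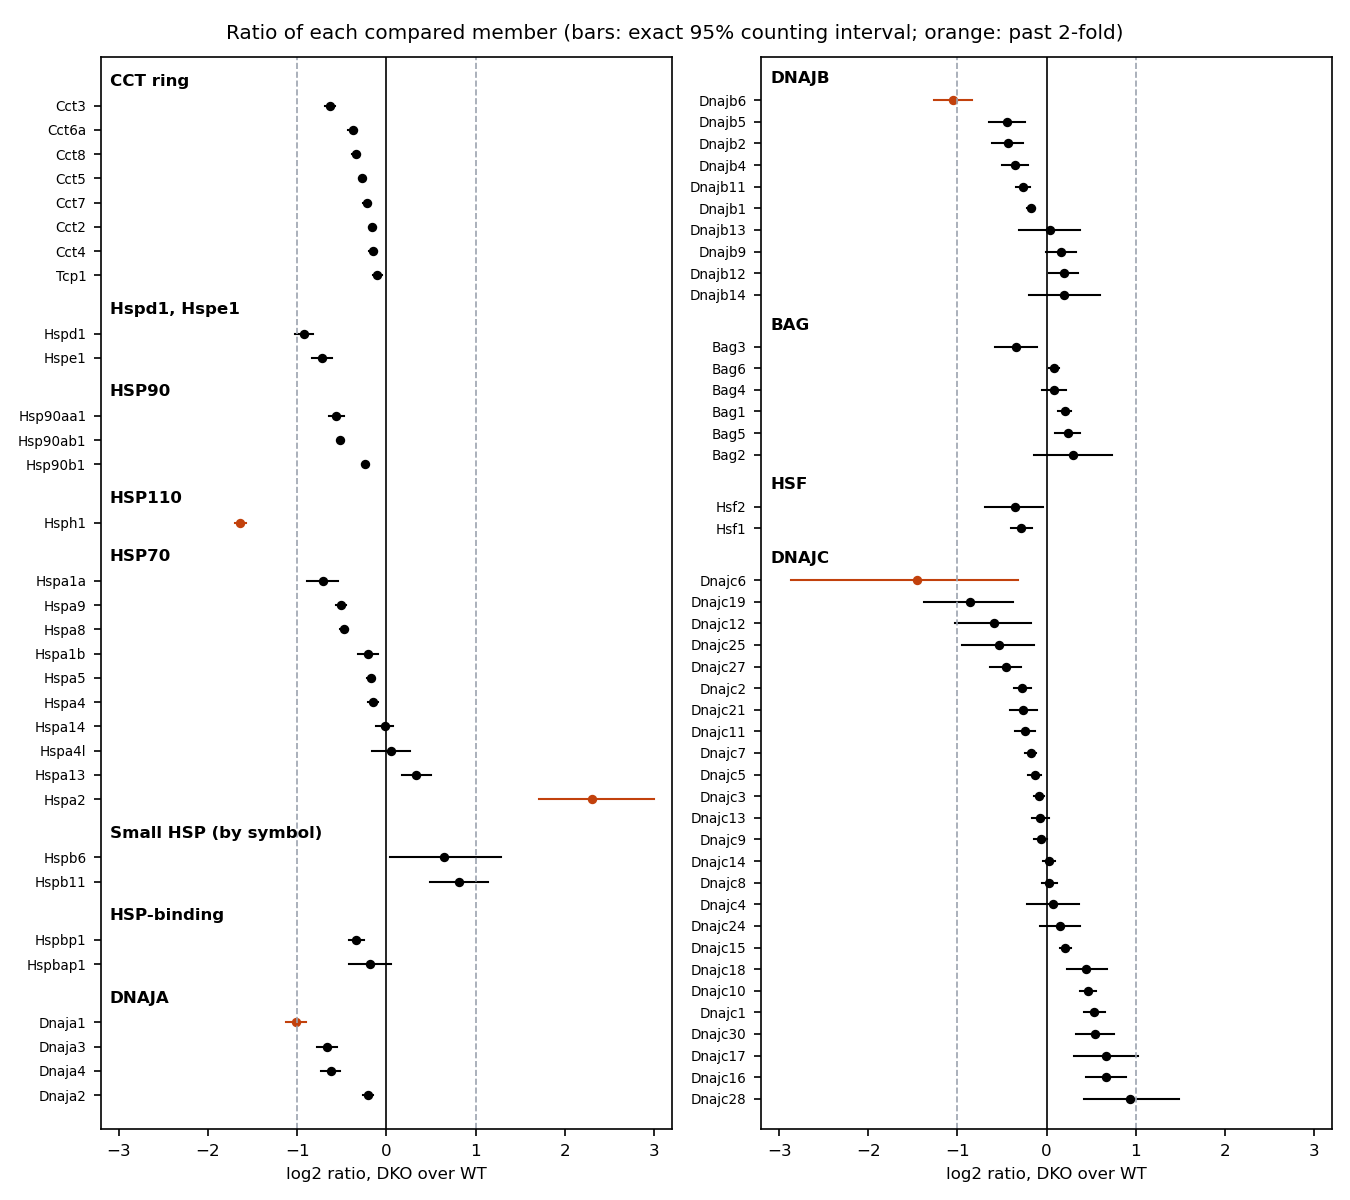
Log2 ratio (DKO over WT, horizontal axis) of the 75 compared members by family, with points for ratios and bars for the exact 95% counting interval; dashed lines mark 2-fold and orange marks called members. All 8 CCT genes, the 3 HSP90 genes and Hspd1 and Hspe1 lie left of 0, Hsph1 lies at -1.64 and Hspa2 at 2.31.

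The ratios of genes in general depended on their abundance, so members were set beside other genes of like mean level. Among members with a mean of 100 CPM or more, 24 of 29 were below 1 (82.8%), with a median log2 ratio of -0.18. The other genes of that abundance were below 1 in 1548 of 2358 cases (65.6%), with a median of -0.09. Between 20 and 100 CPM, 16 of 23 members (69.6%) and 53.5% of the 4807 other genes were below 1, and the medians were -0.26 for members and -0.03 for other genes. From 5 to 20 CPM, 6 of 16 members were below 1 and the median was 0.06, against 0.16 for other genes. From 1 to 5 CPM, 2 of 6 members were below 1, with a median of 0.47, against 0.46 for other genes. Dnajc6, under 1 CPM on average, was in none of these ranges. Calls also depended on abundance. At a mean of 20 CPM or more, 2 of 52 members were called lower (3.85%), against 37 of 7165 other genes (0.516%), and 0 were called higher, against 2.81% of other genes. Those 2 members were Hsph1 and Dnaja1. Under 20 CPM, 2 of 23 members were lower (8.70%), against 8.48% of other genes, and 1 was higher (4.35%), against 25.8%.

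**Figure D2:**
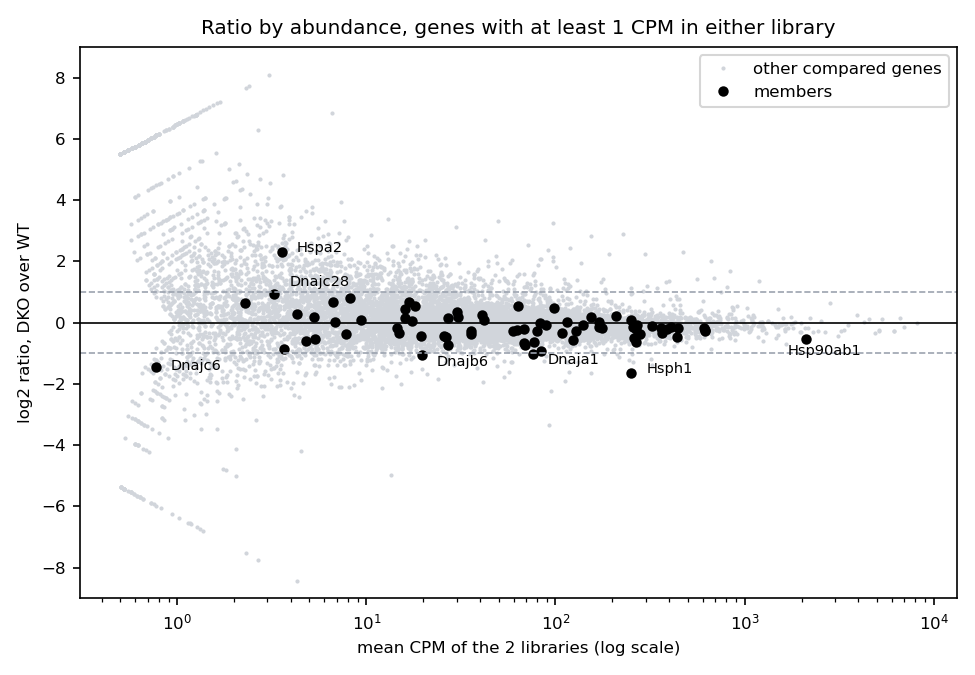
Log2 ratio (DKO over WT, vertical axis) against the mean CPM of the libraries (log scale) for the compared genes, members in black and other genes in grey; dashed lines mark 2-fold. Hsph1 stands lowest among members at -1.64, and members above 20 CPM lie mostly below 0.

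Hsph1, an HSP110 protein that releases nucleotide from HSP70 and helps it to dissolve aggregates, had the lowest ratio of all compared members. It stood at 122.5 CPM (2449 counts) in DKO and 381 CPM (8351 counts) in WT, 3.11-fold lower (2.97 to 3.25). Its transcript shares no 50-base window, the length of a read, with another annotated gene. The related exchange factor genes Hspa4 and Hspa4l lay much closer to 1. Hspa4 stood at 243 CPM in DKO and 270 CPM in WT, 1.11-fold lower (1.07 to 1.15). Hspa4l was at 17.7 CPM in DKO and 17.1 CPM in WT, and its interval included 1.

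Hspa8 and the inducible pair Hspa1a and Hspa1b, all cytosolic HSP70 genes, were lower to differing degrees. Hspa8, the constitutive HSC70, stood at 368 CPM in DKO and 510 CPM in WT, 1.39-fold lower (1.35 to 1.43). Hspa1a, a heat-inducible HSP70, stood at 20.4 CPM (407 counts) in DKO and 33.4 CPM (733 counts) in WT, 1.64-fold lower (1.45 to 1.86). Its near copy Hspa1b stood at 63.3 CPM (1265 counts) in DKO and 72.9 CPM (1600 counts) in WT, 1.15-fold lower (1.07 to 1.24). Hspa1a has 58.8% of its 50-base windows in common with Hspa1b, and 74.8% of those of Hspa8 occur elsewhere, most of them in the pseudogene Gm15459. The deposited files hold non-unique alignments in a row of their own, so the levels of these genes are uncertain, as is the split between Hspa1a and Hspa1b.

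Hspa2, an HSP70 best known from the testis, was the member called higher. It stood at 5.95 CPM (119 counts) in DKO and 1.18 CPM (26 counts) in WT, 4.95-fold higher (3.26 to 8.0). Per kilobase of transcript, Hspa2 made up 1.27% in DKO and 0.187% in WT of the summed level of Hspa8, Hspa1a, Hspa1b and Hspa2. Hspa8 made up 82.9% of that sum in DKO and 85.0% in WT, and so had the highest level of the 4 in both libraries. Hspa12a, a distant relative, had 19 counts in DKO and 0 in WT, at least 6.95-fold higher against a floor of 3 counts per library, with a counting interval that starts at 5.12-fold. Hspa14, which acts with the J-protein Dnajc2 at the ribosome, was at 82.0 CPM in DKO and 83.1 CPM in WT, with an interval that included 1. Hspa1l had 1 count in DKO and 0 in WT.

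Both cytosolic HSP90 genes were lower in DKO, and their intervals overlapped. Hsp90ab1, the constitutive form and the member with the highest level per kilobase, stood at 1744 CPM in DKO and 2495 CPM in WT, 1.43-fold lower (1.41 to 1.45). Hsp90aa1, the inducible form, stood at 99.8 CPM in DKO and 147 CPM in WT, 1.48-fold lower (1.40 to 1.56). Of their joint level per kilobase, Hsp90ab1 supplied 95.8% in DKO and 95.7% in WT. In Hsp90aa1, 58.5% of the 50-base windows also occur in other annotated genes, so its level is uncertain.

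**Figure D3:**
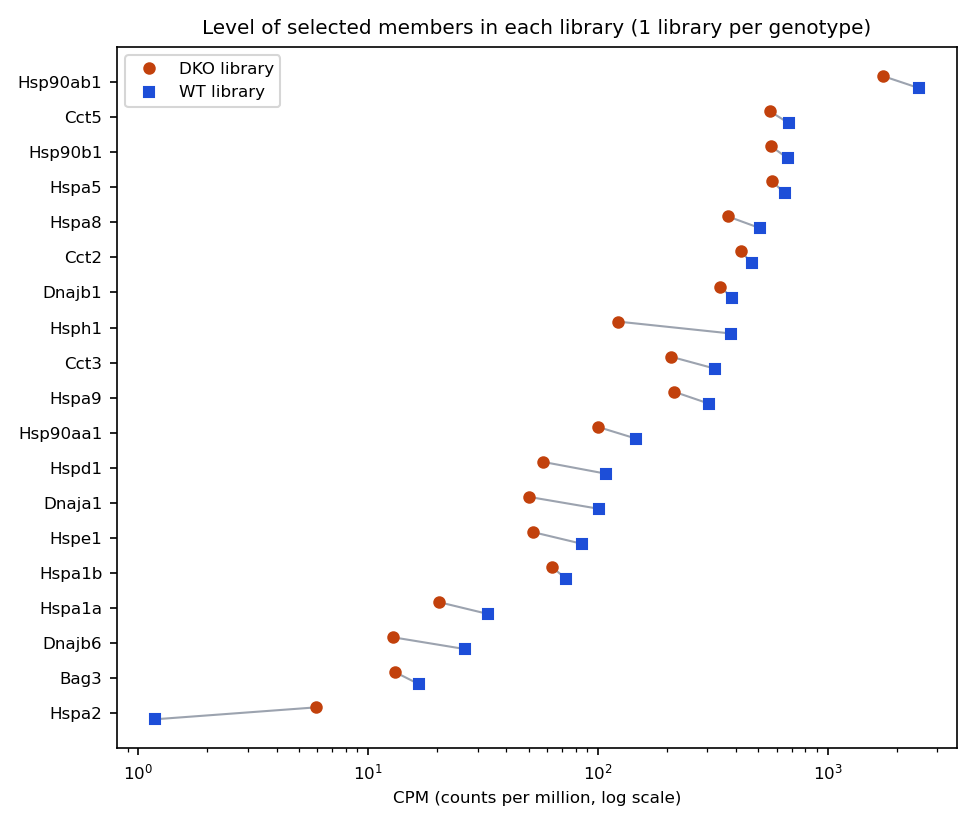
CPM (log scale, horizontal axis) of 19 members in DKO (orange circles, upper) and WT (blue squares, lower), 1 library per genotype, ordered by the WT level. The DKO point lies left of the WT point in each row except Hspa2. The 19 were picked without a fixed rule and do not stand for all members. Of the 75 compared members, 49 lay below 1 and 26 above, among them Bag6, Dnajc15 and Bag1, which are not drawn.

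Hspd1 and Hspe1, the mitochondrial chaperonin and its lid, whose shared promoter is printed above, were both lower. Hspd1 stood at 57.7 CPM (1153 counts) in DKO and 109 CPM (2394 counts) in WT, 1.89-fold lower (1.76 to 2.03). Hspe1 stood at 52.0 CPM (1040 counts) in DKO and 85.8 CPM (1882 counts) in WT, 1.65-fold lower (1.53 to 1.78). Both lay under the 2-fold limit. Other loci hold 44.8% of the windows of Hspd1 and 36.1% of those of Hspe1. Hspa9, the mitochondrial HSP70, stood at 215 CPM in DKO and 305 CPM in WT, 1.42-fold lower (1.37 to 1.48).

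The mitochondrial J-proteins were split. Dnaja3, the partner of Hspa9 in the matrix, stood at 52.4 CPM in DKO and 83.2 CPM in WT, 1.59-fold lower (1.47 to 1.71). Dnajc19, of the import motor, had 52 counts in DKO and 104 in WT, 1.81-fold lower (1.30 to 2.59). Dnajc11, which sits at the outer membrane, was 1.19-fold lower. On the other side, Dnajc15, known in CD8+ T cells as a brake on respiratory complex I, stood at 223 CPM in DKO and 193 CPM in WT, 1.16-fold higher (1.11 to 1.20). Dnajc30 was 1.45-fold higher (1.25 to 1.68), and Dnajc28 had 86 counts in DKO and 49 in WT, 1.92-fold higher (1.34 to 2.79). Dnajc4 was at 9.60 CPM in DKO and 9.12 CPM in WT, with an interval that included 1. Over the 10 mitochondrial members, 6 ratios lay below 1 and 4 above, and the median log2 ratio was -0.38. Of these members 0 were called, against 3.6% of all genes called lower and 11.6% higher.

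All 8 compared genes of the CCT ring were lower in DKO, each by less than 2-fold, and each interval left out 1. Their median log2 ratio was -0.245. All had a mean above 100 CPM, where 65.6% of other genes were also below 1, with a median of -0.09. With so many counts, an interval can leave out 1 at a small difference. The complex holds 8 different subunits in equal number. Cct3 had the lowest ratio of the ring, at 208 CPM in DKO and 323 CPM in WT, 1.55-fold lower (1.49 to 1.61). Next were Cct6a, 1.30-fold lower (1.25 to 1.35), and Cct8, 1.27-fold lower (1.23 to 1.31). Cct5 stood at 560 CPM in DKO and 677 CPM in WT, 1.21-fold lower. Cct7 was 1.16-fold lower, Cct2 1.12-fold and Cct4 1.11-fold. Tcp1, the founding subunit, was 1.07-fold lower (1.04 to 1.11). With CD3 and CD8 genes as the scale, the Tcp1 interval included 1 and those of the other 7 genes did not. The overlapping gene Acat3 holds 21.9% of the windows of Tcp1, so its counts are less certain. The ring summed to 2812 CPM in DKO and 3376 CPM in WT.

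Levels of the ring genes differed within each library. Per kilobase they ran from 105 CPM for Cct3 to 302 CPM for Cct5 in DKO, and from 137 CPM for Tcp1 to 365 CPM for Cct5 in WT, over the 7 genes with a transcript length. The highest level was 2.88 times the lowest in DKO and 2.67 times in WT. Cct6b, a form known from the testis, had 11 counts in DKO and 0 in WT, at least 4.02-fold higher against the floor, with an interval that starts at 2.75-fold.

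Among J-proteins of the A and B classes, 10 of 14 compared genes were below 1. Dnaja1, an inducible partner of HSP70, stood at 50.3 CPM (1005 counts) in DKO and 101 CPM (2225 counts) in WT, 2.02-fold lower (1.87 to 2.18). It lay just past the limit and was no longer called with total counts or CD3 and CD8 genes as the scale. Dnajb6, a suppressor of polyglutamine aggregation, stood at 12.8 CPM (256 counts) in DKO and 26.5 CPM (582 counts) in WT, 2.07-fold lower (1.79 to 2.41), and lost its call when CD3 and CD8 genes set the scale. Other loci hold 18.3% of the windows of Dnaja1 and 35.8% of those of Dnajb6. With overlapping genes included, the shares are 28.8% for Dnaja1 and 42.8% for Dnajb6, so their counts are less certain.

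Dnajb1, the classical inducible HSP40, lay closer to 1 than Dnaja1. It stood at 342 CPM (6833 counts) in DKO and 385 CPM (8446 counts) in WT, 1.13-fold lower (1.09 to 1.16). Dnaja4 was 1.54-fold lower (1.44 to 1.66) and Dnaja2 1.15-fold lower (1.11 to 1.20). Lower ratios were also found for Dnajb5 (1.36-fold), Dnajb2 (1.35-fold) and Dnajb4 (1.28-fold). The overlapping neighbour Wdr61 holds 51.9% of the windows of Dnaja4, so its counts are less certain. Dnajb13, known from sperm flagella, was at 6.90 CPM in DKO and 6.75 CPM in WT, with an interval that included 1.

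The C class of J-proteins, a mixed group with other tasks besides folding, was balanced. Of 25 compared genes, 13 were below 1 and 12 above, and the median log2 ratio was -0.07, which turned to 0.02 when CD3 and CD8 genes set the scale. The called gene was Dnajc6, the clathrin uncoating factor auxilin, with 8 counts in DKO and 25 in WT, 2.73-fold lower (1.25 to 7.31); it was compared only because its WT level, 1.14 CPM, passed the minimum. Dnajc7, a partner of HSP70 and HSP90, was 1.13-fold lower (1.08 to 1.19), and Dnajc2, at the ribosome, 1.21-fold lower (1.13 to 1.29). Dnajc9, a histone chaperone, stood at 137 CPM in DKO and 143 CPM in WT, and Dnajc8, linked to splicing, at 116 CPM in DKO and 114 CPM in WT. Dnajc14 stood at 171 CPM in DKO and 168 CPM in WT. The intervals of these 3 genes included 1. Dnajc16 stood at 20.7 CPM in DKO and 13.04 CPM in WT, 1.59-fold higher (1.36 to 1.85), and Dnajc17, also linked to splicing, at 8.15 CPM in DKO and 5.15 CPM in WT, 1.58-fold higher (1.24 to 2.03). Dnajc12 was 1.51-fold lower (1.13 to 2.04) and Dnajc27 1.37-fold lower. Of the others, Dnajc21 and Dnajc5, a chaperone of secretory vesicles, had intervals below 1, Dnajc18 had one above 1, and those of Dnajc13 and Dnajc24 included 1.

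Chaperones of the ER showed no common direction. Hspa5 (BiP), the HSP70 of the ER, stood at 575 CPM in DKO and 650 CPM in WT, 1.13-fold lower (1.10 to 1.16). Hsp90b1 (GRP94), its HSP90, stood at 567 CPM in DKO and 669 CPM in WT, 1.18-fold lower (1.15 to 1.21). The co-chaperone genes Dnajb11 and Dnajc3 were 1.20-fold lower (1.14 to 1.27) and 1.06-fold lower (1.02 to 1.10). When CD3 and CD8 genes set the scale, the log2 ratio of Dnajc3 was 0.00. On the other side, Dnajc10, a disulfide reductase, stood at 113 CPM in DKO and 82.0 CPM in WT, 1.38-fold higher (1.30 to 1.47). Dnajc1, a ribosome-binding J-protein, stood at 74.8 CPM in DKO and 51.6 CPM in WT, 1.45-fold higher (1.34 to 1.57). Hspa13 was 1.26-fold higher (1.13 to 1.41), Dnajb12 1.14-fold higher and Dnajc25 1.45-fold lower (1.11 to 1.93). Dnajb9, a target of the ER stress response, stood at 28.6 CPM in DKO and 25.6 CPM in WT, and its interval included 1, as did that of Dnajb14. Of the 11 ER members, 5 lay below 1 and 6 above, and the median log2 ratio was 0.16. Among them 0 were called, against 3.6% of all genes called lower and 11.6% higher. Plasma cells are rich in ER chaperones, and the part of the plasma cell markers given above in these ratios was not tested.

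BAG proteins, exchange factors that also link HSP70 to other pathways, lay slightly above 1 apart from the inducible Bag3. Bag1 stood at 165 CPM in DKO and 144 CPM in WT, 1.15-fold higher (1.09 to 1.21). Bag5 was 1.18-fold higher (1.07 to 1.30) and Bag6, which guides tail-anchored proteins, 1.06-fold higher (1.02 to 1.10). Bag2 and Bag4 had intervals that included 1. Bag3, which is induced by heat through HSF1 and directs HSP70 clients to autophagy, had 263 counts in DKO and 366 in WT, 1.27-fold lower (1.08 to 1.49).

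The heat shock factors were lower as well, by less than 2-fold. Hsf1, the main driver of the response, stood at 53.9 CPM in DKO and 65.6 CPM in WT, 1.22-fold lower (1.12 to 1.32). Hsf2 stood at 6.85 CPM in DKO and 8.80 CPM in WT, 1.28-fold lower (1.03 to 1.61). The HSP70-binding exchange factor gene Hspbp1 was 1.26-fold lower (1.19 to 1.34), and Hspbap1 had an interval that included 1. Of the 8 small heat shock protein genes by symbol, 5 were at 0 in both libraries. Hspb1 had 0 counts in DKO and 15 in WT, at least 4.56-fold lower against the floor, with an interval that starts at 3.27-fold. Other loci hold 51.6% of its 50-base windows, so its level is uncertain. Hspb6 had 56 counts in DKO and 39 in WT. Hspb11, which despite its symbol is an intraflagellar transport protein, stood at 10.5 CPM in DKO and 5.97 CPM in WT, 1.76-fold higher (1.41 to 2.21).

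Grouped by inducibility, 10 of 11 compared stress-inducible members were below 1, against 49.8% of all genes. Among other genes the share was 57.5% at a mean of 20 CPM or more and 65.6% at 100 CPM or more. The stress-inducible list held Hspa1a, Hspa1b, Hspb1, Hsph1, Dnajb1, Bag3, Hsp90aa1, Hspd1, Hspe1, Dnaja1, Dnajb4 and Hspa4l, of which Hspb1 was under 1 CPM. Each of the 10 below 1 had an interval that left out 1. In the list 2 were called lower (Hsph1 and Dnaja1) and 0 higher, and the median log2 ratio was -0.56. Hspd1 and Hspe1 are also in the mitochondrial list; without them the median was -0.35 over 9 genes, of which 8 were below 1, and that of the other 8 mitochondrial members was -0.09. Levels of all 12 genes of the stress-inducible list, Hspd1 and Hspe1 included, summed to 869.7 CPM in DKO and 1390 CPM in WT. The 11 constitutive partners (Hspa8, Hsp90ab1, Hspa4, Hspa14, Dnaja2, Dnajb2, Dnajb6, Dnajc2, Dnajc7, Dnajc8 and Dnajc9) had 10 ratios below 1, 1 lower call (Dnajb6) and a median of -0.20. The count below 1 was thus the same as in the stress-inducible list and does not separate inducible from constitutive members. All genes compared had a median of 0.00, with 3.6% called lower. Immediate early genes, which respond quickly to stimulation and handling, had a median of 0.23. Of these, 3 of 11 were called higher, against 11.6% of all genes compared, and 0 lower.

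**Figure D4:**
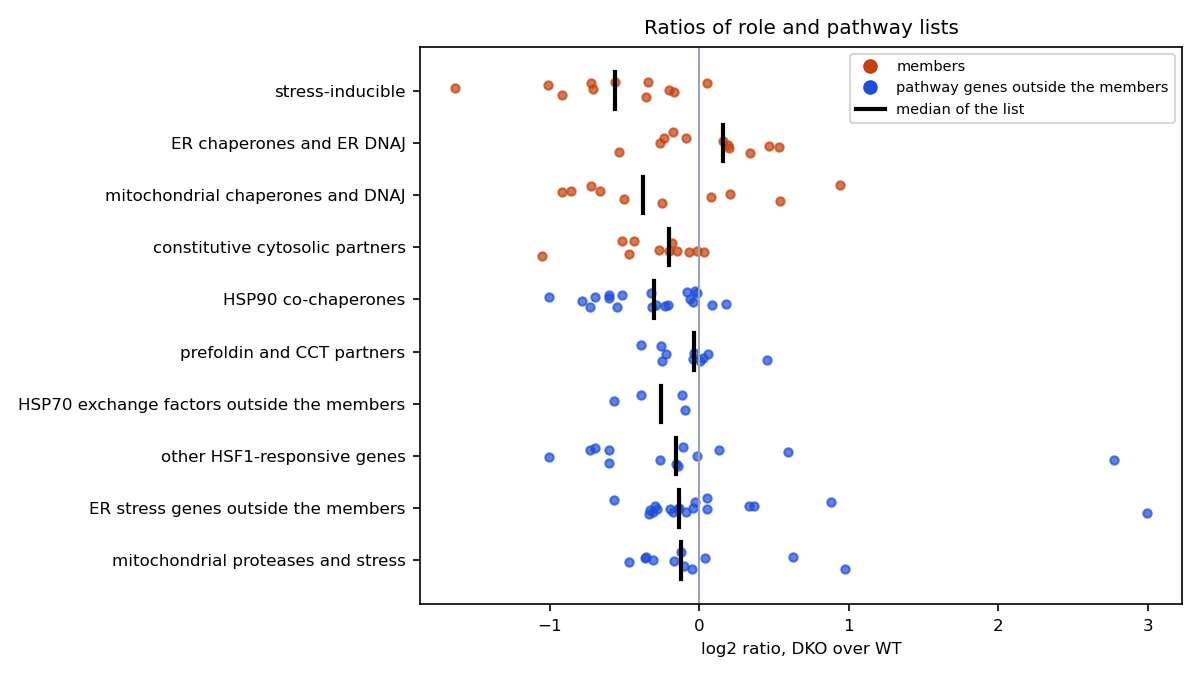
Log2 ratio (DKO over WT, horizontal axis) of each compared gene in the 4 role lists of members (orange) and in 6 lists of pathway genes outside the members (blue), with the median of each list as a black bar; vertical scatter within a list only separates the points. The stress-inducible list has a median of -0.56, which is -0.35 without Hspd1 and Hspe1, also held by the mitochondrial list (median -0.38), and the ER members have a median of 0.16.

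Genes of the same machinery outside the symbol rule were taken in 6 lists, each with more ratios below 1 than above. Such ratios made up 60.0% of the prefoldin and CCT partners, 68.4% of the ER stress genes and 72.7% of the mitochondrial proteases and stress genes. Those lists hold genes both under and over 100 CPM. Among all genes but the members, the share was 53.5% at a mean of 20 to 100 CPM and 65.6% at 100 CPM or more. In the remaining lists it was 76.9% for other HSF1-responsive genes, 90.0% for HSP90 co-chaperones and 100% for the 4 HSP70 exchange factors. Of 20 HSP90 co-chaperone genes, 18 were below 1, against 49.8% of all genes and 57.5% of other genes with a mean of 20 CPM or more; 1 was called lower and 0 higher, and the median log2 ratio was -0.30. Stip1 (HOP), which hands clients from HSP70 to HSP90, stood at 168 CPM (3356 counts) in DKO and 338 CPM (7410 counts) in WT, 2.01-fold lower (1.93 to 2.10). Its log2 ratio, -1.009, lay just past the limit. Total counts moved log2 ratios up by 0.048 and CD3 and CD8 genes by 0.088, both more than that margin. St13 (HIP), which steadies HSP70 with its client, stood at 105 CPM in DKO and 181 CPM in WT, 1.72-fold lower (1.63 to 1.82). Chordc1, an inducible HSP90 partner, stood at 95.5 CPM in DKO and 159 CPM in WT, 1.66-fold lower (1.57 to 1.76). The list of other HSF1-responsive genes, which shares Stip1, Chordc1, Ahsa1 and Fkbp4 with the one above, had a median of -0.16, with 10 of 13 below 1. Besides Stip1, the metallothionein Mt1 was called in it, with 127 counts in DKO and 20 in WT, 6.82-fold higher (4.33 to 11.8). Serpinh1, a collagen chaperone of that list, was under 1 CPM, with 0 counts in DKO and 20 in WT.

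Prefoldin and CCT partners had a median of -0.04, which turned to 0.01 with total counts and to 0.05 with CD3 and CD8 genes as the scale, and 0 of 10 were called. In this list Pdcl3 was 1.37-fold higher, Pfdn2 1.31-fold lower and Pdrg1 1.20-fold lower. The 4 other HSP70 exchange factors were all below 1, at a median of -0.25, with Hyou1, of the ER, 1.48-fold lower (1.40 to 1.57) and Sil1, also of the ER, 1.31-fold lower. ER stress genes outside the members had a median of -0.14, with 13 of 19 below 1. Among them Trib3 had 105 counts in DKO and 14 in WT and was called, 7.98-fold higher (4.69 to 15.6). Ern1, a sensor of ER stress, stood at 21.5 CPM in DKO and 11.7 CPM in WT, 1.84-fold higher (1.58 to 2.16). Mitochondrial proteases and stress genes had a median of -0.12 with 0 of 11 called. In that list Atf5 was 1.97-fold higher, Htra2 1.54-fold higher and Trap1, the mitochondrial HSP90, 1.38-fold lower. Of all genes compared, 3.6% were called lower and 11.6% higher.

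The 4 members with an exact heat shock element ranked 1, 3, 5 and 7 from the lowest of the 75 compared members. These are Hsph1, Dnajb6, Hspd1 and Hspe1, at a median log2 ratio of -0.98. Of the 75 compared members, 61 had a promoter window that could be searched. Hspd1 and Hspe1 share their elements, so the 4 genes hold fewer separate sites. The other 57 compared members with a promoter window had a median of -0.16 and ratios from -1.45 to 2.31, so the values overlap. Exact elements were found in 6.32% of the members' windows and in 0.603% of all 32851 windows. Dnajb6 and Hsph1 were counted more than once there, through overlapping windows from starts 81 and 21 bases apart that hold the same element. By gene, the element was found for 4 of 75 members with a window and for 179 of 27025 genes. Among 50 compared genes with the element that are not members, 24 were below 1, and the median was 0.02. Of these, 3 were called lower and 8 higher, but 6 of the 8 passed the minimum of 1 CPM through DKO alone, where they are higher. With a mean of 1 CPM required, 3 of 48 were lower (6.25%), against 2.68% of all genes but the members. At that minimum 6 were higher (12.5%), against 10.1%. At a mean of 20 CPM or more, 17 of 29 such genes were below 1 (58.6%), against 57.5% of all genes but the members, and 1 was called lower and 0 higher. Chordc1 was among those 50. With 1 mismatch allowed, a search added after the ratios were known, 15 compared members held an element, of which 13 were below 1 and 3 called lower, and their median was -0.46. This looser form stands in 7.22% of all windows and in 22.1% of the members' windows. The 3 members with an ER stress element, Hsp90b1, Hspa5 and Dnajc3, lay at a median of -0.18; that element stands in 0.119% of all windows.

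**Figure D5:**
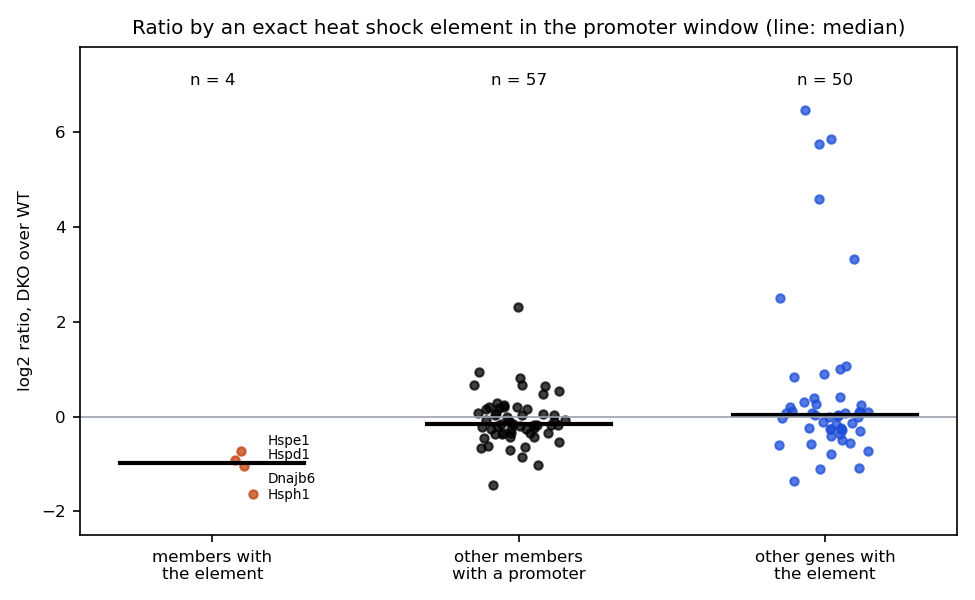
Log2 ratio (DKO over WT, vertical axis) of compared genes, grouped as the 4 members with an exact heat shock element, the 57 other members with a promoter window and the 50 other genes with the element, with a line at each median. The 4 members lie between -1.64 and -0.72.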

How the data were processed

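RNA was measured in 2 libraries, 1 per genotype, grouped by genotype. What the authors deposited are whole-number read counts per gene with no normalisation. The submitters' processing notes list bcl2fastq, TopHat2 2.0.8b, HTSeq and mm9, with no roles; annotation and strand setting are not stated, so overlapping genes cannot be told apart. In each file 5 rows name no gene and were left out; of these, non-unique alignments made up 64.8% of the file total in DKO and 66.4% in WT.

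Counts were scaled by TMM (edgeR 4.0.16, R 4.3.3; factors 1.02 for DKO and 0.983 for WT). Ratios used a prior count of 0.5. Intervals are Clopper-Pearson 95% intervals of the DKO share of a gene's counts, turned into ratios (scipy 1.17.1). A fold against 0 used a floor of 3 counts (0.15 CPM in DKO, 0.137 CPM in WT). Both cover counting error only, since each genotype has 1 library. Reads carry no molecular identifiers, so duplicates cannot be set apart, and the intervals may be too narrow even for counting error. Genes with 1 CPM in either library were compared. The code was checked on simulated counts.

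Members, lists and the rule for named genes were chosen with earlier results of these data known. The rule took the core chaperones (CCT, HSP90, BAG, HSF, the inducible and constitutive lists, Hspd1, Hspe1, Hspa5 and Hspa9), all called members, and per family of HSP70, small HSP and DNAJ genes the 6 most abundant per kilobase and the 6 with the largest ratios at 5 CPM or more. Of the pathway lists it took called genes and the 3 with the largest ratios; other genes, named to account for all members, were added after their values were seen. Gene lengths (91 members), 50-base windows and promoters came from GENCODE M21 and RefSeq on GRCm38, not mm9. Alternatives were total-count, DESeq2 1.42.0 and CD3 and CD8 gene scaling, no filter or 5 CPM, a prior count of 5, a mean of 1 CPM (added after seeing the data), and limits of 1.5-fold and 4-fold.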

Additional observations from a re-analysis of the deposited data

How the results depend on the processing

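As reported, 1 member was called higher and 4 lower. Scaling by CD3 and CD8 genes gave 2 higher (Dnajc28 added) and 2 lower (Dnaja1 and Dnajb6 lost); it moved the median log2 ratio of all genes by 0.088, and total counts moved it by 0.048. Without a filter, 3 were higher and 5 lower, the added Cct6b, Hspa12a and Hspb1 each being at 0 in 1 library. A 1.5-fold limit gave 6 higher and 12 lower, and a 4-fold limit 1 higher and 0 lower. Total counts gave 3 lower (Dnaja1 lost), as did a minimum of 5 CPM and, chosen after seeing the data, a mean of 1 CPM (Dnajc6 left out in both). DESeq2 size factors and a prior count of 5 gave the same 5 calls. Except for a mean of 1 CPM, the shares of all genes called were not computed at these settings. The members' counts there cannot be set against them. The members' median stayed below 0 in each setting that recomputed it, between -0.18 and -0.09. Among single members, Hspa14 changed sign with total counts, and Dnajc13, Dnajc9 and Hspa14 with CD3 and CD8 genes, where Dnajc3 lay at 0.00; none of these was called. No paired analysis was possible because each genotype has 1 library, and for the same reason no library could be left out. Depth limits members with few counts, such as Dnajc6.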

Other observations

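Beyond the chaperones, 50 compared genes had an exact heat shock element in the promoter window. Of these, 3 were called lower and 8 higher. The shares over all genes compared were 3.6% lower and 11.6% higher. The genes in this paragraph were named after their values were seen. Among those called lower, Timm9, which chaperones proteins in the space between the mitochondrial membranes, had 315 counts in DKO and 736 in WT, 2.13-fold lower (1.86 to 2.44). Mgmt, a DNA repair enzyme, had 59 counts in DKO and 168 in WT, 2.58-fold lower (1.92 to 3.55). A230072E10Rik had 24 counts in DKO and 57 in WT. Of the 8 called higher, Smo had 40 counts in DKO, Cntd1 26 and Uchl1 24, and all 3 had 0 in WT, so that they were compared through DKO alone. The others were Plscr4 (76 counts in DKO and 3 in WT), Cyp2ab1 (114 in DKO and 12 in WT) and Rtn1 (116 in DKO and 22 in WT). Tmcc2 (101 in DKO and 55 in WT) and Cldnd2 (35 in DKO and 18 in WT) were also called higher.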
